A study of Mus musculus with 2 samples.

Results

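Genes for abundant carrier proteins of the blood plasma were examined in normal and diabetic mouse liver. The genes were chosen by name, as Alb, Ttr, Trf, Ahsg, Fetub, Ambp, Gc, Rbp4, A1bg and Azgp1. Of these 10 genes, 8 had values among the 8551 genes listed for the series, and Gc and Rbp4 were not analysed here. The series holds 1 library of wild type liver and 1 library of db/db liver, both from male mice of 9 weeks with a C57BL/6 strain background, killed about 3 h into the light period. db/db mice lack the long form of the leptin receptor and become obese and diabetic. The mice came from 2 suppliers, and the sources do not say whether each group came from one of them. The labels and the methods do not say whether RNA from several mice was pooled, so n = 1 library per group, no difference has a replicate check, and no value below carries a p-value.

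Hepatocytes secrete most plasma proteins, and a small number of carrier proteins makes up much of the protein mass of plasma. Carriers bind ligands that are poorly soluble, easily filtered or toxic when free, such as fatty acids, retinol, thyroid hormone, iron and heme, and deliver them to tissues. Several carriers, among them albumin, transferrin, transthyretin and fetuin-A, are known as negative acute-phase proteins, whose hepatic mRNA decreases in inflammation.

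The 8 genes were read through short tags. Per the labels, poly(A) RNA was copied with random hexamers and the cDNA cut with DpnII, which cleaves at GATC, for digital gene expression tag profiling. In that method the bases after the GATC nearest to the poly(A) end identify the transcript, and this site was assumed here. The tags below are shown because such tags are what the levels count. They are predicted tags, read from the longest protein-coding transcript of each gene in GENCODE M21 (GRCm38), as the site, in capitals, and the 17 bases after it. The tag length, and whether tags at other sites were also counted, are not given in the sources used here.
Alb: GATCcctggtggaaaggcggc
Ahsg: GATCagacacttcaaaatcta
Fetub: GATCtaaccaccaatccccag
Trf: GATCaaccactgcaaattcga
Ambp: GATCtggacccaaataaaaca
Azgp1: GATCaatcgccttgccttgta
A1bg: GATCagcgaccctgtggaggt

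In GRCm38 coordinates, the Alb tag lies in coding sequence of exon 12 of 15 (chr5:90472540-90472560, plus strand). Those of Ahsg (chr16:22899054-22899074, plus strand) and Fetub (chr16:22939471-22939491, plus strand) lie in coding sequence of the last exon, as does that of A1bg (chr15:60917875-60917895, minus strand). The Trf tag joins coding sequence of exons 12 and 13 of 17, so that its bases lie within chr9:103215943-103217382 on the minus strand. For Ambp (chr4:63143293-63143313, minus strand) and Azgp1 (chr5:137990041-137990061, plus strand) the tag is in the 3′ UTR, and the Ambp site is only 39 bases from the transcript end. The Ttr site is also in the 3′ UTR, in exon 4 of 4. For 7 of the 8 genes the tag occurred in transcripts of no other gene of the annotation. The Trf tag also occurs in Gm20425, an annotated gene that overlaps Trf, and how the authors assigned such a tag is not given in the sources used here.

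Levels are given in TPM, the authors' unit, in which the tags of a gene are scaled to the clean tags of its library. From the steps of the values, 1 read was worth 0.0973 TPM in normal and 0.0740 TPM in diabetic liver, which corresponds to 10278533 and 13508232 clean tags. Log2 ratios are diabetic over normal, with 95% Clopper-Pearson intervals that cover counting error only. A gene was described as higher or lower where it differed at least 1.5-fold. The study asked for this fold together with an FDR under 0.001, a rule given below as an alternative. Across all listed genes the median log2 ratio was 0.25, so a gene with equal values lay below the typical gene, and values after scaling by the trimmed mean of M values (TMM), which lowers each log2 ratio by 0.25, are given where they matter. Of 14 hepatocyte markers 11 had values, none of them at 3 reads or fewer, and they summed to 11872 TPM in normal and 13904 TPM in diabetic liver.

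Of the 8 carrier genes, Alb, Trf and Ahsg were at nearly equal deposited values in both libraries. Of all 8, 1 was higher in diabetic liver, A1bg, and 1 was lower, Fetub, while 6 lay within 1.5-fold. Over all listed genes 34.4% were higher and 15.3% lower. The same 2 carrier genes passed under every other scaling, where the background was 23.7% higher and 23.9% lower with the listed genes set to equal sums, 24.0% and 23.6% with TMM, 21.9% and 25.6% with the median ratio, and 23.4% and 24.3% with the upper quartile. They also passed when an FDR under 0.001 was asked for (22.5% and 8.07% of all genes), whereas at 2-fold (18.6% and 6.81%) only A1bg passed. A1bg was listed only because of its diabetic level, since genes with a mean under 1 TPM were left out by the authors and it had no read in the normal library, so it had to differ. Without it, 0 of 7 carrier genes were higher and 1 was lower. The median log2 ratio of the 8 genes was 0.01 as deposited and -0.25 after TMM scaling.

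**Figure D1:**
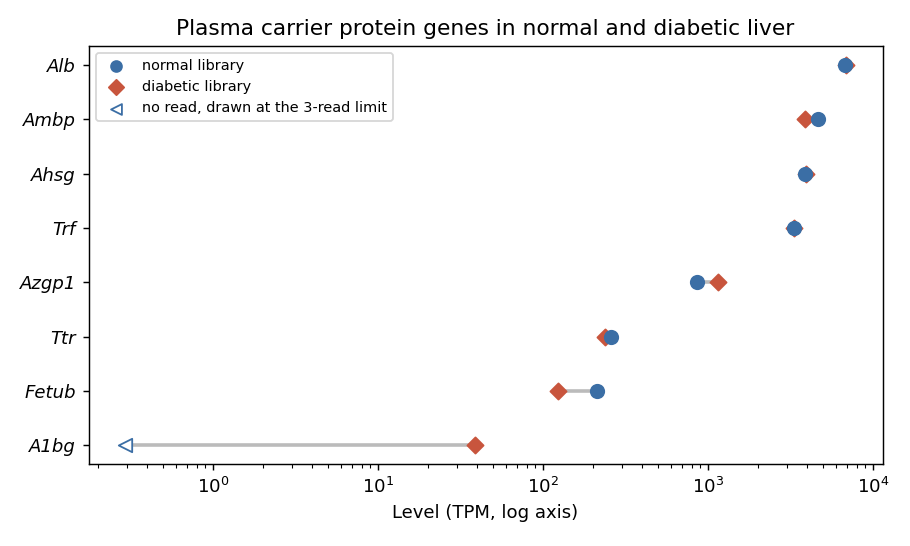
Level of each carrier gene in TPM (log axis) in the normal library (blue circle) and the diabetic library (red diamond), with the normal value of A1bg drawn at the limit of 3 reads. The pairs of Alb, Ahsg and Trf overlap, Fetub lies lower in diabetic liver, and A1bg goes from no read to 38.9 TPM.

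The albumin gene Alb encodes the main plasma protein, which carries fatty acids, bilirubin and many hormones. It was at 6801 TPM in normal liver and at 6912 TPM in diabetic liver (69907 and 93370 reads). Its log2 ratio was 0.02 (95% interval, 0.01 to 0.04), and it ranked as the 4th most abundant listed gene in the normal library and the 3rd in the diabetic library. The levels of Alb therefore differed by 1.63%, slightly more than the counting error.

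Ahsg encodes fetuin-A, a cystatin-domain protein that keeps calcium phosphate in solution and binds the insulin receptor. Its values were 3895 TPM and 3930 TPM in the same order (40034 and 53091 reads), a log2 ratio of 0.01 (95% interval, -0.01 to 0.03). For Trf, which encodes transferrin, the iron carrier of plasma, 3332.6 TPM and 3330.6 TPM were counted (34254 and 44990 reads), with a 95% interval of the log2 ratio from -0.02 to 0.02. The difference was within counting error for both genes.

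As Alb, Ahsg and Trf had nearly the same log2 ratio, they necessarily kept their proportions to each other. These proportions do not depend on how the libraries are scaled. The ratio of Ahsg to Alb was 0.573 in normal and 0.569 in diabetic liver, a change of 0.993-fold (95% Woolf interval, 0.977 to 1.01). The ratio of Trf to Alb changed 0.983-fold (95% Woolf interval, 0.967 to 1.00). Among the 57 genes whose mean reached 1000 TPM, a limit chosen after the values were seen, Trf, Ahsg and Alb were the 3 with log2 ratios nearest to 0. Of the 52 other genes at that level, 27 were higher and 7 lower, and the quartiles of their log2 ratios were -0.09 and 1.06. The 5 carrier genes at that level, with Ambp and Azgp1, ran from -0.27 to 0.41. Under TMM scaling the log2 ratios of Alb, Ahsg and Trf were -0.23, -0.24 and -0.25, and they were no longer the 3 nearest to 0, since Cyp2e1, for one, lay nearer. Of the 52 other genes 18 were then higher and 10 lower.

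**Figure D2:**
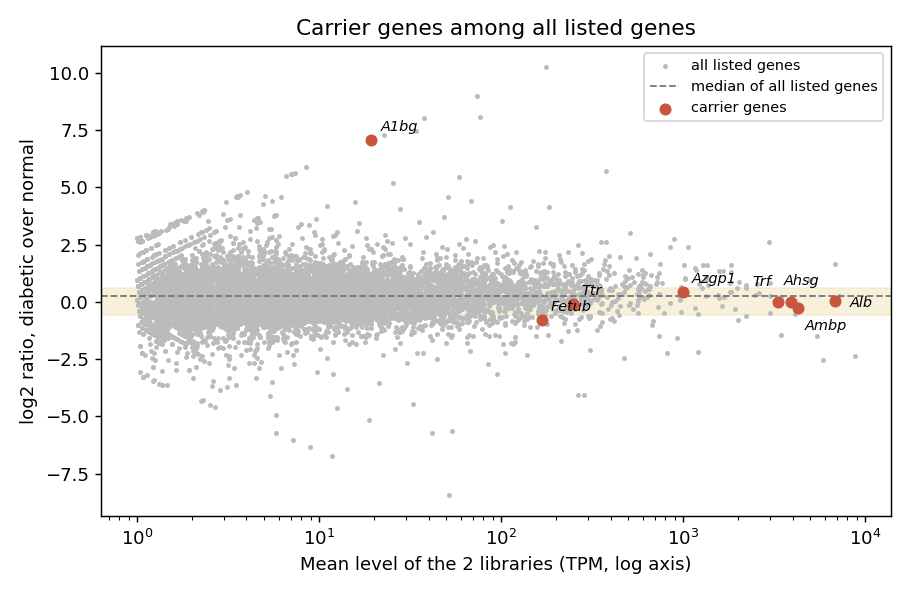
Log2 ratio, diabetic over normal, of each listed gene (grey) and of the 8 carrier genes (red, labelled) against the mean level of the 2 libraries in TPM (log axis). The band marks less than 1.5-fold and the dashed line the median of all genes at 0.25. The carriers at over 1000 TPM lie inside the band, and A1bg lies near the top.

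Ambp encodes a precursor that is cut into alpha1-microglobulin, a lipocalin that binds heme, and bikunin, the light chain of the inter-alpha-inhibitor proteins. It was at 4660 TPM in normal and 3871 TPM in diabetic liver (47895 and 52296 reads), a log2 ratio of -0.27 (95% interval, -0.29 to -0.25). Its level was thus 16.9% below that of normal liver, within the 1.5-fold limit. Relative to Alb it was 0.818-fold (95% Woolf interval, 0.805 to 0.831). Ambp was above Ahsg in the normal library by 1.20-fold and below it in the diabetic library by 1.02-fold, the only change of order among the 8 genes. Under the 4 other scalings its log2 ratio was between -0.52 and -0.57, still within 1.5-fold.

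Azgp1 encodes zinc alpha2-glycoprotein, a secreted protein with the fold of MHC class I heavy chains that binds fatty acids and is known as a lipid-mobilising factor. Its values were 859.8 TPM in normal and 1144 TPM in diabetic liver (8837 and 15453 reads), a log2 ratio of 0.41 (95% interval, 0.37 to 0.45). Azgp1 ranked 57th in both libraries. The ratio of Azgp1 to Alb was 1.31-fold higher in diabetic liver (95% Woolf interval, 1.27 to 1.35). Under TMM scaling its log2 ratio was 0.16.

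Ttr encodes transthyretin, which carries thyroxine and, through retinol binding protein, retinol. It had 2641 reads in normal and 3233 reads in diabetic liver, or 256.9 and 239.3 TPM. The log2 ratio was -0.10 (95% interval, -0.18 to -0.03). Its rank went from 203 to 314, and relative to Alb it was 0.917-fold (95% Woolf interval, 0.870 to 0.966).

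Fetub was the carrier gene that was lower in diabetic liver. It encodes fetuin-B, a relative of fetuin-A that inhibits the zinc protease ovastacin and is needed for female fertility. Fetub was at 211.9 TPM in normal liver and at 123.1 TPM in diabetic liver (2178 and 1663 reads), 1.72-fold lower, with a log2 ratio of -0.78 (95% interval, -0.88 to -0.69). Its rank went from 260 to 592, and 10.3% of listed genes had a lower log2 ratio. Under TMM scaling it was 2.05-fold lower.

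The fetuins differed although their genes are neighbours. The ratio of Fetub to Ahsg was 0.0544 in normal and 0.0313 in diabetic liver, 0.576-fold (95% Woolf interval, 0.539 to 0.615). In the RefSeq gene table of GRCm38.p6, Ahsg, Fetub, Hrg, Kng2 and Kng1, which all encode cystatin-domain plasma proteins, follow each other on chromosome 16 with no other protein-coding gene between them. Of these 5 genes 2 were lower, Fetub and Kng2, and none higher, against 15.3% and 34.4% of all listed genes, with a median log2 ratio of -0.24. Kng2, a kininogen gene, was at 21.2 and 10.6 TPM, 2.00-fold lower. Kng1, the other kininogen gene, had a log2 ratio of -0.24, and Hrg, which encodes histidine-rich glycoprotein, had -0.06. Counts of close paralogs, such as Kng1 and Kng2, Orm3 and other orosomucoids, or the Cyp2b genes, are uncertain where a tag is common to several.

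**Figure D3:**
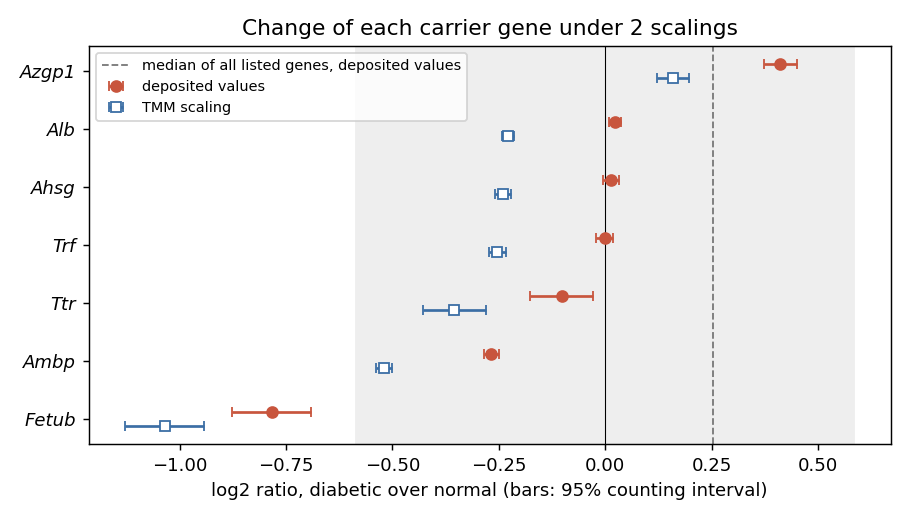
Log2 ratio, diabetic over normal, of 7 carrier genes under the deposited values (red) and TMM scaling (blue, open), with 95% counting intervals as bars, the band of less than 1.5-fold in grey and the median of all listed genes dashed. Fetub lies outside the band under both scalings, and the signs of Alb and Ahsg depend on the scaling.

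A1bg was the carrier gene that was higher in diabetic liver. It encodes alpha1B-glycoprotein, a plasma protein of the immunoglobulin superfamily, and in mouse liver it is known as a gene expressed mainly in females. In these male livers it had 0 reads in the normal library, which allows up to 3 reads or 0.292 TPM, and 525 reads in the diabetic library, 38.9 TPM. It was at least 133-fold higher, computed against 3 reads in the normal library. The lower end of its 95% Clopper-Pearson interval was 108-fold, and the log2 ratio with 1 TPM added to both values was 5.32. In the 3-read computation 6 listed genes had a higher log2 ratio. Under the 4 other scalings this bound was between 108-fold and 112-fold. Among the listed genes it ranked 1505th in the diabetic library.

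Other genes known to be higher in female than in male mouse liver were higher as well. Of 30 genes on that list, which was written with earlier results of these data known, 21 had values. Of these, 21 of 21 were higher in diabetic liver, A1bg among them, against 34.4% of all listed genes. Without A1bg the median log2 ratio of the 20 others was 4.47, against 0.25 for all listed genes. Of the 21 genes, 9 had 3 reads or fewer in the normal library and were set to 3 reads. Because genes with a mean under 1 TPM were left out, these 9 were listed only through their diabetic level. They had to be higher, as had any listed gene with a normal level well under 1 TPM. The count of 21 and the median were therefore partly fixed in advance. Cyp2b9, a cytochrome P450 gene, had 0 and 4756 reads, and Sult2a2, a sulfotransferase gene, had 2 and 2000 reads. Cyp3a16 (log2 ratio 1.06) and Adam11 (1.44) were at the low end of the list. Of 26 genes known to be higher in male liver, 13 had values, of which 11 were lower (84.6%, against 15.3% of all listed genes) and 1 was higher, with a median log2 ratio of -2.69. Hsd3b5, a steroid dehydrogenase gene, went from 1061 to 4 reads, and Slco1a1, an organic anion transporter gene, from 841 to 21 reads, while Ugt2b1 had a log2 ratio of 0.94 and Bcl6, a repressor of female-biased genes, -0.44. The gene nearest to A1bg in the plane of normal and diabetic levels was Cyp2b13, with 0 and 617 reads.

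The upstream sequences of A1bg, Fetub and Ahsg are shown because A1bg and Fetub were the carrier genes past 1.5-fold and Ahsg lies next to Fetub at nearly equal levels. They are the 250 bases before the start site, from RefSeq on GRCm38.p6, 5′ to 3′ on the strand of the gene, at chr15:60921271-60921520 (minus strand), chr16:22918132-22918381 (plus strand, the first of 2 start sites) and chr16:22891765-22892014 (plus strand). Capitals mark matches to the motifs searched.
A1bg: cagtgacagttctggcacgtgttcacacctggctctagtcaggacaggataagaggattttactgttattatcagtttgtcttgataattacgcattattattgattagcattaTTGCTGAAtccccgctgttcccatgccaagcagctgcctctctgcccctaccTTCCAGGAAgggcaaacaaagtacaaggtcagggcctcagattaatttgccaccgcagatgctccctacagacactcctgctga
Fetub: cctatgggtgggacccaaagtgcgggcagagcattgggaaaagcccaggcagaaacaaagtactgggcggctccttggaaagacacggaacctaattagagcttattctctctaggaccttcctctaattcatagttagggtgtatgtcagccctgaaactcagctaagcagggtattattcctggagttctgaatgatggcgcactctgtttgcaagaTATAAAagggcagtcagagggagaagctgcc
Ahsg: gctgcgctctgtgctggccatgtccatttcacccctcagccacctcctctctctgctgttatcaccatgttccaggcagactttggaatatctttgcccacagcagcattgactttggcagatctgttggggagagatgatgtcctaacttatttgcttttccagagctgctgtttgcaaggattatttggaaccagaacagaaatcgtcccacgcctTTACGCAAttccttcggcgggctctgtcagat

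The motifs searched on both strands, in 250 bases before to 50 after the start, included the core promoter element TATAAA. The other motifs were that of C/EBP proteins, TTGCNNAA, that of STAT proteins, TTCNNNGAA, and that of FOXA proteins, TGTTTAC. A variant of the latter, TATTTAC, was also searched. The palindrome of HNF1 was searched as well and is given by name only. A1bg has a match to the STAT motif that begins 84 bases before the start, a motif in 8.30% of the 32851 promoters of the table, and a match to the C/EBP motif 136 bases before it. The C/EBP motif, present in 10.8% of promoters, also matched 32 bases before the start of Ahsg and 94 bases before that of Alb. Fetub has a TATAAA 31 bases before this start, as 13.6% of promoters have anywhere in the window, and a FOXA match, TGTTTAC (3.65% of promoters), at its other start. No motif matched in the windows of Ambp and Azgp1. Such matches are letters in a window and were not tied to any level.

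The partners of the carriers were described from lists of relatives and ligand-handling genes. For Ambp, the heavy chain genes Itih1 to Itih4 did not keep one proportion to it. Itih1 went from 474 to 229 TPM, 2.07-fold lower, and Itih5, a relative, had 26 and 20 reads, with a log2 ratio of -0.77 whose 95% interval held 0 (-1.69 to 0.12). Itih3 was at 205 and 137 TPM, just within 1.5-fold (log2 ratio -0.58), while Itih2 (-0.02) and Itih4 (-0.01) were nearly equal. The ratio of Ambp to Itih1 was therefore 1.72-fold higher in diabetic liver (95% Woolf interval, 1.64 to 1.80), that to Itih3 was 1.24-fold (1.17 to 1.32), and those to Itih2 and Itih4 were 0.845-fold (0.782 to 0.913) and 0.837-fold (0.795 to 0.882). Of Itih1 to Itih4, Itih1 alone was at least 1.5-fold lower.

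**Figure D4:**
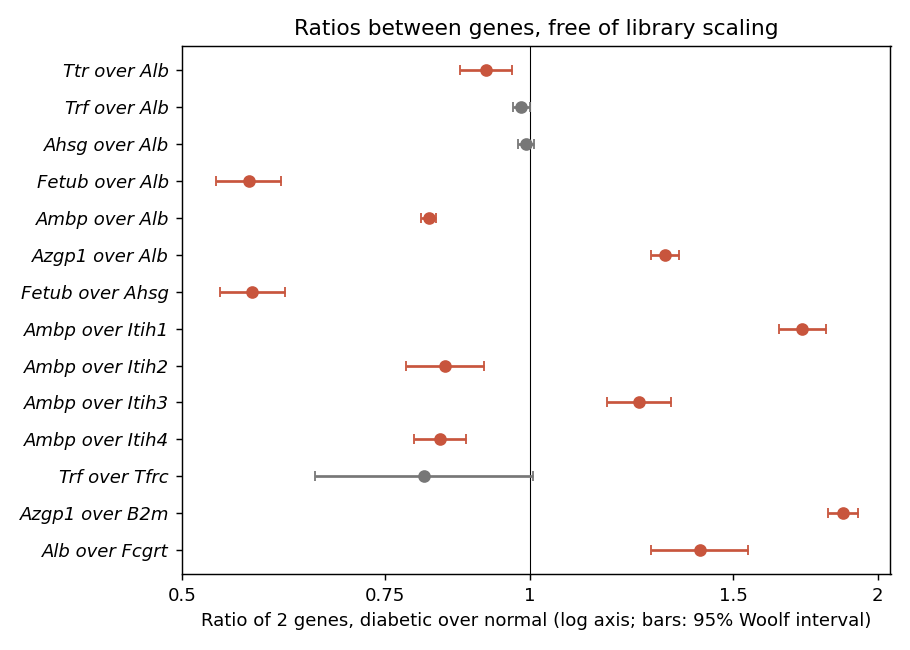
Change of the ratio between 14 pairs of genes, diabetic over normal (log axis), with 95% Woolf intervals. Intervals that hold 1 are grey. Ahsg and Trf keep their ratio to Alb, Fetub is at 0.572-fold of Alb, and the ratio of Ambp to the Itih genes moves in both directions.

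Heme and haemoglobin binders around Ambp also differed among themselves. Hpx, the heme carrier hemopexin, was at 2279 and 2942 TPM (log2 ratio 0.37), and Hp, the haemoglobin carrier haptoglobin, at 1427 and 1002 TPM (-0.51). Cd163, the macrophage receptor for haptoglobin with haemoglobin, was 2.04-fold lower, Lrp1, a receptor for hemopexin with heme, had a log2 ratio of -0.53, and Hmox1, which degrades heme, was 1.69-fold higher. Of 13 macrophage markers 9 had values, of which 5 were lower and 1 higher, against 15.3% and 34.4% of all listed genes. The higher one was C1qb (log2 ratio 0.60), while C1qa had -1.80 and Cd5l -0.04. Among the 9 markers 0 were at 3 reads or fewer, and their sum went from 331 to 196 TPM. Most of that drop lay in C1qa, which went from 176 to 50.7 TPM. The part of these markers in the value of Cd163 was not tested. In bulk liver fewer cells of a type and less RNA per cell cannot be told apart.

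Around Trf, 10 of 15 genes of iron transport and storage had values, of which 3 were higher and 0 lower, against 34.4% and 15.3% of all genes. The higher ones were Fth1, the ferritin heavy chain, at 907 and 1548 TPM (1.71-fold), Hfe2, the hemojuvelin gene (1.51-fold), and Slc11a2, an iron importer gene with only 14 and 31 reads (log2 ratio 0.75, 95% interval -0.20 to 1.78). Under TMM scaling none of the 3 reached 1.5-fold. Tfrc, the transferrin receptor, had 132 and 214 reads, and the ratio of Trf to Tfrc was 0.810-fold with an interval that held 1 (95% Woolf interval, 0.652 to 1.01). At the low end were Steap3, a ferrireductase (log2 ratio -0.38), and Tmprss6, a protease that restrains hepcidin (-0.28).

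Several retinol and thyroid hormone handling genes showed larger differences than Ttr. Of 6 retinol genes with values 3 were higher, against 34.4% of all listed genes. Aldh1a1, a retinaldehyde dehydrogenase, was 6.65-fold higher, Retsat, retinol saturase, 3.07-fold and Rdh16, a retinol dehydrogenase, 1.97-fold. Of 11 thyroid hormone genes 8 had values, of which 2 were higher and 0 lower. Without the carriers Alb and Ttr 2 of 6 were higher, near the 34.4% of all listed genes. The 2 higher genes were Serpina7, thyroxine-binding globulin, with 60 and 151 reads (1.91-fold), and Thrsp, a thyroid hormone target gene, at 6.17-fold. Dio1, the deiodinase of liver, had a log2 ratio of 0.13 and the receptor gene Thrb of -0.28. Of 3 vitamin D genes with values, Cyp2r1 (log2 ratio 1.46) and Cyp3a11 (1.34) were higher and Cyp27a1 (-0.98) was lower.

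The relatives of Alb and Azgp1 were less even than Alb itself. Afm, afamin, which carries vitamin E, was at 118 and 88.5 TPM (log2 ratio -0.42), and Afp, the fetal albumin relative, had 7 and 24 reads, 2.62-fold higher with a wide 95% interval of the log2 ratio from 0.13 to 2.84. Fcgrt, the receptor that protects albumin from degradation, was at 84.0 and 60.9 TPM, so that the ratio of Alb to Fcgrt was 1.40-fold higher (95% Woolf interval, 1.27 to 1.54). B2m, the light chain of class I molecules, had a log2 ratio of -0.49. Among genes with the fold of MHC class I heavy chains, Cd1d1 had 2.14, Hfe 0.37 and Mr1 -1.05 with 33 and 21 reads. The ratio of Azgp1 to B2m was 1.87-fold higher in diabetic liver (95% Woolf interval, 1.81 to 1.92). Of 12 lipocalin genes 7 had values, of which 2 were higher and 1 lower. These shares of 28.6% and 14.3% lie near the 34.4% and 15.3% of all listed genes. Orm3, an orosomucoid, was 7.47-fold and Lcn2, which binds iron siderophores, 4.28-fold higher, and Apom, the carrier of sphingosine 1-phosphate, had a log2 ratio of -0.42.

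**Figure D5:**
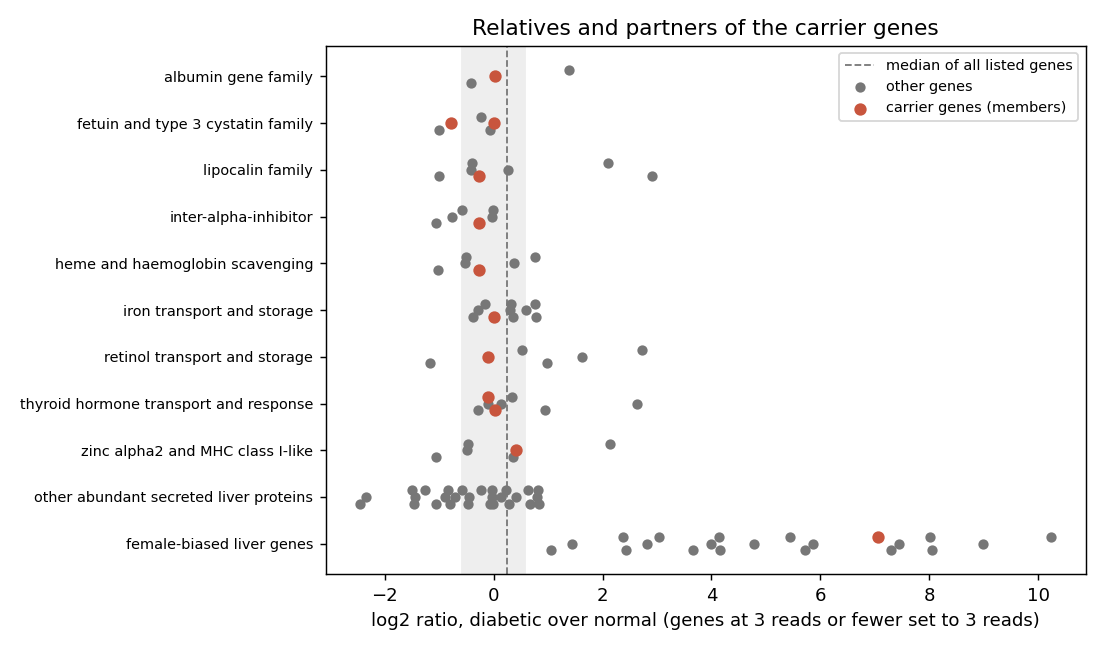
Log2 ratio, diabetic over normal, of the genes on lists of relatives and partners (grey) with the carrier genes (red), the band of less than 1.5-fold in grey and the median of all listed genes dashed. The carriers sit in or near the band in every list shown except the female-biased genes, where A1bg is at 7.06 after setting its normal value to 3 reads.

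Other secreted liver proteins were described beside the carriers. Of 36 genes on a list of abundant secreted proteins that holds no carrier gene, 28 had values. Of these, 5 were higher (17.9%) and 11 lower (39.3%), against 34.4% and 15.3% of all listed genes. Under TMM scaling 0 of the 28 were higher and 14 lower, against 24.0% and 23.6% of all listed genes. As deposited, the median log2 ratio of the 28 genes was -0.35, with 19 below 0 and 9 above. Their sum, which leaves out the 8 genes without values, went from 46562 to 27319 TPM. Much of that drop lay in few genes, as Apoa1 went from 14668 to 2875 TPM and Fgg from 5079 to 1837 TPM. The sum of the 8 carriers was 20017 TPM in normal and 19590 TPM in diabetic liver. Apob and Apoa1, the main proteins of very low and of high density lipoproteins, were 5.46-fold and 5.10-fold lower, and the protease inhibitor genes Serpinc1 and Serpind1 were 1.77-fold and 1.76-fold higher. Of 19 positive acute-phase genes 14 had values, while Saa1, Saa2, Orm1, Orm2 and Serpina3n had none under those names. Of the 14, 5 were lower (35.7%) and 2 higher (14.3%), with a median log2 ratio of -0.12. They ran from Saa3 at -1.75 and Fgg at -1.47 to C3 at 0.62 and Lcn2 at 2.10. Of 17 other hormone and ligand carriers 14 had values, of which 3 were higher and 3 lower (21.4% each). They ran from Igfbp2 at -4.45 and Igfbp1 at -1.47 to Serpina6, the corticosteroid carrier, at 0.87 and Sepp1, the selenium carrier, at 1.66.

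As a share of the reads on listed genes, the 8 carriers took 5.40% in normal liver (95% Wilson interval, 5.38% to 5.42%) and 4.42% in diabetic liver (4.40% to 4.43%). The listed genes themselves took 37.1% and 44.4% of the clean tags. Within the carrier reads, Ahsg took 19.5% and 20.1%, Ambp 23.3% and 19.8%, Azgp1 4.30% and 5.84%, and Fetub 1.06% and 0.628%. By level, the nearest listed gene to Alb was Cyp2e1, to Ahsg Cyb5, to Trf Chchd10, to Ambp Apoe, to Azgp1 Sepx1, to Fetub Mtus1 and to Ttr mCG_130059, each compared over 2 libraries only.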

How the data were processed

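Poly(A) RNA of liver was made into cDNA, digested with DpnII and sequenced as tags on an Illumina 1G sequencer, and the authors compared high quality clean tags with RefSeq. The build mm9 is named in the submitters' processing notes, while the aligner and the mismatches allowed are not given in the sources used here. The values that the authors deposited, called TPM, are in effect RPM, that is tags of a gene scaled by each library's clean tags, given to 2 decimals, with 0.01 in place of 0 and genes with a mean under 1 left out. Each library is one of the groups. The number of other value columns was 0.

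Whole reads were computed from the value steps (8513 of 8513 and 8536 of 8537 values whole, tolerance 0.1 read). The steps recovered all 8551 genes' reads in simulated libraries, where 96.0% of 95% intervals held the simulated ratio. Ratios were computed from the deposited values, with genes at 3 reads or fewer set to 3 reads, and their intervals from reads. As the tags carry no molecular identifiers, reads can be copies of one molecule, and the intervals and read limits hold counting error alone. No test was made between the conditions. Alternatives were 4 scalings (sum of listed genes, TMM with trims of 30% and 5%, median ratio over genes of at least 10 TPM, 75th percentile), an added 0.1 or 1 TPM, a mean of 5 TPM or more, a 2-fold threshold, and a 2-sided exact binomial test between the libraries' reads with Benjamini-Hochberg FDR under 0.001, which compares libraries and not conditions.

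The carrier genes and the gene lists were chosen with earlier results of these data known. Named genes are the carriers, genes of fixed pairs, measured genes of lists of at most 8 genes, in longer lists up to 2 genes at each end whose mean reached 10 TPM, and the nearest gene by level. Slc11a2, Serpina7, Cd3d and Cela2a fell outside this rule and were named after their values were seen, because they complete small counts. Some genes of the retinol and thyroid hormone lists are not reported here. Sequences came from GENCODE M21 and RefSeq (8 of 8 genes matched by Entrez ID), and no sequence is printed for Ttr. Computations ran in Python 3.11.15 with pandas 2.3.3, scipy 1.17.1 and numpy 2.4.6, and plots in matplotlib 3.10.9.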

Additional observations from a re-analysis of the deposited data

How the results depend on the processing

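The numbers of carrier genes at least 1.5-fold higher (1) and lower (1) stayed the same under the 4 other scalings, both pseudocounts, a minimum mean of 5 TPM and an FDR under 0.001. With a 2-fold threshold 0 carrier genes were lower, because Fetub was 1.72-fold lower, while 18.6% of all genes were higher and 6.81% lower. The median log2 ratio of the carriers, 0.01, was -0.25 with the listed genes set to equal sums, -0.25 under TMM, -0.30 under median ratio and -0.26 under upper quartile scaling, since each of these lowers every log2 ratio, by 0.25 to 0.31. It was -0.00087 without A1bg. The signs of 2 carriers, Alb and Ahsg, changed under these scalings, and 0 results past 1.5-fold changed direction. The share of all genes called higher went from 34.4% to between 21.9% and 24.0% and that called lower from 15.3% to between 23.6% and 25.6%. With 1 TPM added, 14 of 15 ratios between genes stayed within their intervals, and the bound of A1bg fell to a log2 ratio of 5.32. Of 19 planned ratios, 15 were computed, and those with Gc, Rbp4 or Tfr2 were not run. No paired analysis was possible because each group has 1 library, and for the same reason none could be left out. Depth limits the genes with few reads, such as Afp and Slc11a2.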

Other observations

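Regulators and the secretory machinery of the carrier genes were also listed. Of 16 hepatocyte transcription factors with values 6 were higher and 3 lower in diabetic liver, against 34.4% and 15.3% of all genes. Under TMM scaling 3 of the 16 were higher and 5 lower, against 24.0% and 23.6% of all genes. Hnf4a, a main activator of plasma protein genes, was at 96.8 and 46.2 TPM, 2.10-fold lower, and Foxa3, another liver factor, was 1.76-fold lower. Tef, a clock output factor, was 5.79-fold higher, and Nr1h4, the bile acid receptor, had a log2 ratio of 0.74. Of 31 genes of protein translocation, folding and export 27 had values, of which 11 were higher and 5 lower. With a median log2 ratio of 0.30, they lay near the 34.4%, 15.3% and 0.25 of all listed genes. Under TMM scaling 7 were higher and 6 lower. P4hb, a disulfide isomerase, was 2.65-fold and Srp14, a subunit of the signal recognition particle, 2.37-fold higher, whereas Xbp1, a factor of the unfolded protein response, was 2.12-fold and Pdia4, another disulfide isomerase, 1.80-fold lower.

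The cell type marker counts cover markers with values only and are to be read against 34.4% higher and 15.3% lower among all listed genes. Of 11 hepatocyte markers 3 were higher and 0 lower. Of 11 endothelial markers 2 were higher and 2 lower, of 8 stellate cell markers 2 and 2, of 3 cholangiocyte markers 1 and 0, and of 2 B cell markers 1 and 1. Of the 1 marker with a value for T and NK cells, Cd3d, and for erythroid cells, Alas2, neither differed 1.5-fold. The 1 exocrine pancreas marker with a value, Cela2a, had 21 and 3 reads.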
